A study of Homo sapiens with 12 samples.

Results

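KLF5 carrying the missense change E419Q was compared with wild-type KLF5 (WT), each overexpressed in HCC95, an established human line from a lung squamous cell carcinoma. The comparison used every library whose label names one of these constructs, which were libraries A and B of E419Q and libraries A and B of WT, or 4 of the 12 RNA-seq libraries of the study. The study also held 2 HCC95 libraries with an empty vector, which entered the fit to estimate the spread and are given below only as background levels, and 6 libraries of another line, BICR31, treated with siRNA, which were not used here. All 4 libraries share the HCC95 background and an introduced KLF5 on top of the line's own gene. The sources used here name neither the vector and its promoter, nor whether the cells are pools or clones, nor the harvest time. The labels also do not say that libraries A and B came from separate cultures, so the p-values measure only how far these libraries differ from each other, and that spread may be technical.

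KLF5 is a zinc-finger transcription factor of proliferating epithelial cells, where it binds C-rich GC and CACC boxes in promoters and enhancers. E419Q replaces a glutamate by a glutamine within the zinc fingers, the part of the protein that contacts DNA. In squamous epithelium KLF5 acts in the basal cells beside the lineage factors TP63 and SOX2, and it is known for targets among keratin, growth and lipid genes. The question was whether the altered protein gives other transcript levels than the wild type at a like KLF5 level.

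The KLF5 transcript stood at 427 and 442 CPM in E419Q libraries A and B and at 420.0 and 404 CPM in WT libraries A and B, against 149.9 and 136 CPM with the empty vector. CPM stands for counts scaled to an equal library total. The E419Q libraries were both above the WT libraries, by a fold of 1.04 (95% interval 0.954 to 1.14), and the difference did not pass the test (edgeR adjusted p = 0.683). These counts do not separate the introduced transcript from the line's own, and they say nothing of the protein. The 4 libraries held 3074118 to 3992537 counts, and the sum of 10 squamous markers was 14277 and 15211 CPM in E419Q and 23061 and 24212 CPM in WT, so the squamous identity named in the labels was visible in each library. Markers of other cell types were low: the 3 endothelial markers summed to 26.3 and 28.5 CPM in E419Q and 16.5 and 12.3 CPM in WT, nearly all of it VWF, with KDR at 0 and CDH5 at 0 to 2 counts per library. The 6 fibroblast markers summed to 14.3 and 17.5 CPM against 8.81 and 8.01 CPM, most of it COL1A1, with DCN and LUM at 0. Lung glandular and erythroid markers were each at most 6.76 CPM in sum, and of the immune markers CD3E was at 0 and the sum was nearly all CD68.

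Between E419Q and WT, 1034 of 12933 genes tested differed at an adjusted p under 0.05 (8.00% of the genes tested), 570 higher in E419Q (4.41%) and 464 lower (3.59%). The libraries of the groups did not overlap for 1031 of them, but this also held for 49.0% of all genes tested (27.1% with E419Q higher and 21.9% with E419Q lower). Most differences were small: the median size among called genes was 0.59 on the log2 scale and the smallest 0.16, while 144 genes were at least 2-fold higher and 99 at least 2-fold lower (1.88% of genes tested, both directions together). The median log2 fold change over all genes was -0.003, and of the called genes 985 were protein-coding. The number of calls rests on having both libraries of each group: without E419Q A, E419Q B, WT A or WT B it was 597, 607, 634 and 627. DESeq2 called 467 genes, all of them among the 1034. Throughout, "higher" and "lower" without a qualifier are used of genes past the edgeR threshold of 0.05, and of the 196 called members of the gene lists described here, 90 stayed called without each of these 4 libraries in turn. In the text, a list's members are said to hold where that is so. Counts of a list given without a share are to be set beside the 4.41% and 3.59% of all genes. The lists were chosen with earlier results of these data known, so their shares are not independent of these data.

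**Figure D1:**
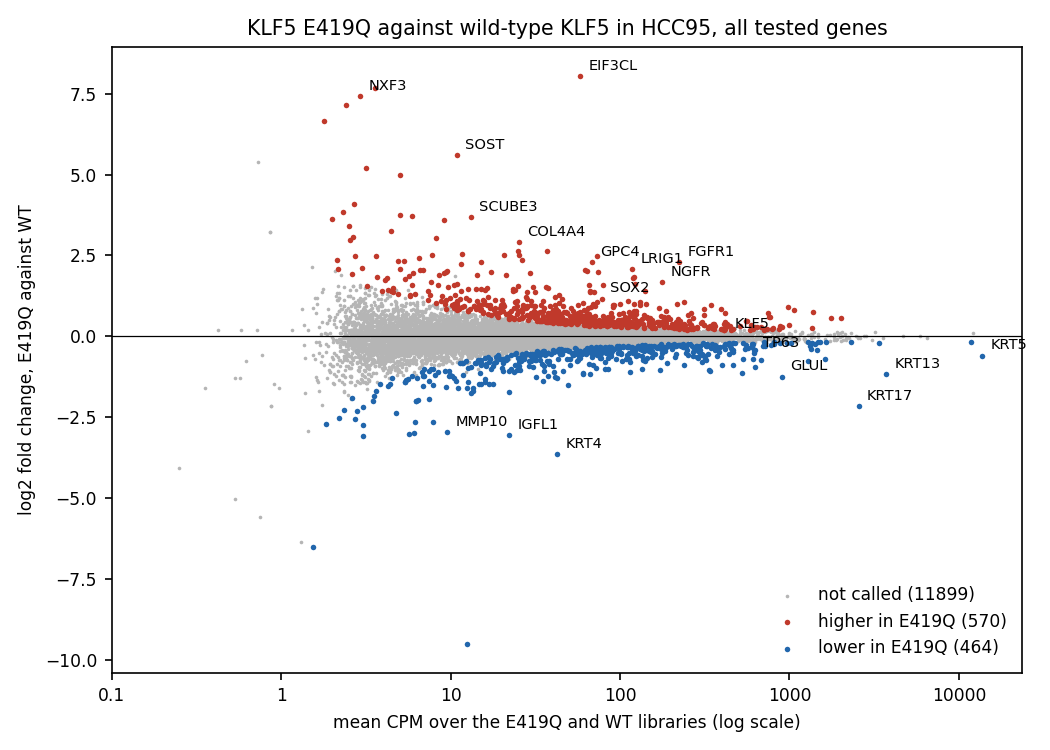
Each point is 1 of the 12933 genes tested, with the mean CPM over the E419Q and WT libraries on a log axis and the log2 fold change of E419Q against WT on the y axis. Red marks the 570 genes called higher in E419Q and blue the 464 called lower; FGFR1, LRIG1 and GPC4 lie far above the line at intermediate levels, KRT17, KRT13 and KRT5 below it at high levels, and KLF5 lies on it.

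The smallest adjusted p among the higher genes belonged to FGFR1, a receptor tyrosine kinase for fibroblast growth factors. FGFR1 stood at 357 and 385 CPM in E419Q and at 72.8 and 75.9 CPM in WT, with 93.8 and 100.1 CPM with the empty vector. Both E419Q libraries were far above both WT libraries, by 4.92-fold (95% interval 4.395 to 5.501, log2 fold change 2.30, SE 0.0779, edgeR adjusted p = 9.35e-15). GPC4, a heparan sulfate proteoglycan of the glypican family that can bind growth factors at the cell surface, stood at 111 and 117 CPM against 21.04 and 24.5 CPM, 4.93-fold higher (edgeR adjusted p = 3.35e-12). LRIG1, a transmembrane inhibitor of ERBB receptors and a marker of epithelial stem cells, stood at 189 and 195 CPM against 43.8 and 45.6 CPM, 4.24-fold higher (edgeR adjusted p = 1.05e-12). NGFR, a neurotrophin receptor found on basal epithelial cells, stood at 269 and 271 CPM against 83.6 and 83.2 CPM, 3.197-fold higher. TNS1, a focal adhesion protein, stood at 189 and 191 CPM against 55.7 and 50.1 CPM, 3.55-fold higher. For these genes the spread within a group was small beside the gap between the groups, and each call held. UPK3BL, with 3.496-fold, completes the 6 smallest p, but it has near-identical copies among which counts can be split, so its value is uncertain.

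Several genes were nearly absent in WT and present in E419Q. SOST, a secreted WNT antagonist best known from bone, had 138 counts over the E419Q libraries and 3 over the WT libraries, or 19.5 and 23.2 CPM against 0.284 and 0.501 CPM, a ratio of 53.6 (95% counting interval 18.0 to 263). NXF3, a relative of the mRNA export factor NXF1, had 38 counts in E419Q and 0 in WT, so it was at least 14.8-fold higher against a floor of 3 counts over the WT group. PRELP, a leucine-rich proteoglycan of connective tissue, had 62 counts against 2 (ratio 36.2, 9.60 to 305), DAAM2, a formin of WNT signalling, 40 against 1 (46.7, 7.91 to 1888), and ROS1, a receptor tyrosine kinase, 33 against 2 (19.2, 4.92 to 166). Each of these 5 calls held, while the ratios are wide because the WT counts are so few. The intervals cover counting error only.

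EIF3CL had 753 counts in E419Q and 3 in WT, and RAB43 had 45 and 0 (at least 17.5-fold). Both calls held, but the values are uncertain: EIF3CL is a near-identical copy of EIF3C, RAB43 shares exons with a read-through transcript, and the counting can split reads between such partners in different ways in different libraries. The same holds in the other direction for GTF2IP1, a pseudogene copy of GTF2I with 186 counts in WT and 0 in E419Q, which was singled out after its values were seen.

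The other genes among the 15 largest rises had more WT counts. SCUBE3, a secreted glycoprotein that can be released by carcinoma cells, stood at 26.02 and 23.2 CPM against 1.71 and 2.004 CPM, 12.8-fold higher (95% interval 8.23 to 19.9, edgeR adjusted p = 1.42e-08). COL4A4, a basement membrane collagen chain, was at 44.6 CPM in both E419Q libraries against 5.97 and 5.76 CPM, 7.47-fold higher (edgeR adjusted p = 4.26e-10). SPON1, a matrix protein of the spondin family, stood at 64.1 and 63.3 CPM against 12.2 and 8.01 CPM, 6.27-fold higher. CLSTN2, a calsyntenin, stood at 14.6 and 14.9 CPM against 1.42 and 2.004 CPM. ACOXL, an acyl-CoA oxidase-like gene, stood at 11.4 and 10.7 CPM against 0.853 and 0.751 CPM, and FFAR4, a receptor for long-chain fatty acids, at 9.11 and 7.13 CPM against 0.853 and 0.751 CPM. In each of these the groups were well apart and the call held. FLG, which encodes filaggrin of the cornified layer, was uneven within E419Q, at 26.3 CPM in library A and 7.43 CPM in library B, against 1.14 and 1.503 CPM in WT, and without E419Q A its log2 fold change moved from 3.59 to 2.43 and its edgeR adjusted p from 0.00019 to 0.0532. SERPINB3, a serpin of squamous epithelium with a close copy in SERPINB4, stood at 7.48 and 11.3 CPM against 0.569 and 0.751 CPM.

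**Figure D2:**
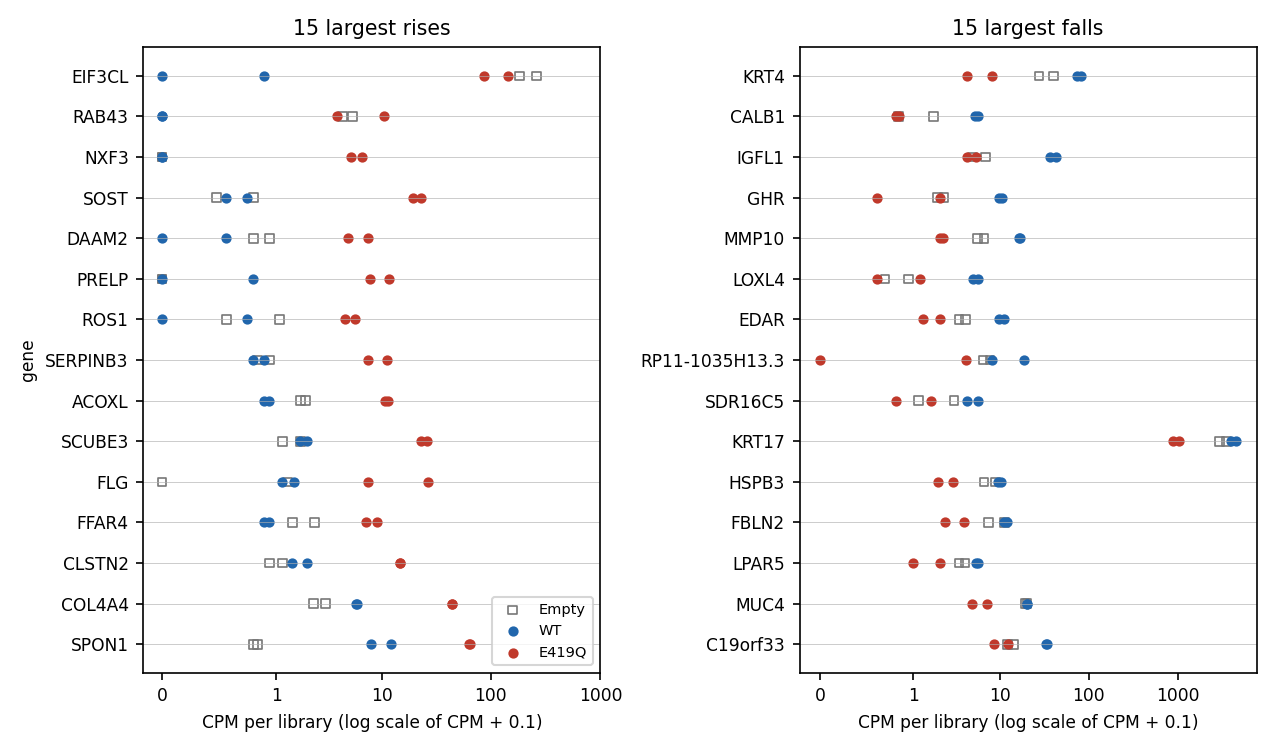
CPM of each library on a log scale (of CPM + 0.1) for the 15 largest rises, left, and the 15 largest falls, right, with E419Q in red, WT in blue and the empty vector as open squares, shown as background. The red and blue points are apart in every row, which the choice of these genes required. NXF3 and RAB43 are at 0 in WT, and KRT17 falls from about 4176 to 953 CPM.

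Keratins changed in both directions. KRT17, a keratin of basal and activated keratinocytes, stood at 878 and 1027 CPM in E419Q and at 3929 and 4424 CPM in WT, with 3502 and 2928 CPM with the empty vector. It was 4.44-fold lower in E419Q (95% interval 3.98 to 4.95, edgeR adjusted p = 1.22e-14), the smallest p in this direction. KRT4 and KRT13 pair in the suprabasal layers of non-cornified squamous epithelium such as the oesophagus. KRT4 stood at 4.23 and 8.32 CPM against 83.03 and 74.6 CPM, 12.5-fold lower (9.19 to 16.9, edgeR adjusted p = 4.48e-11), and its log2 fold change went from -3.64 to -4.23 without E419Q B. KRT13 stood at 2176 and 2426 CPM against 4965 and 5312 CPM, 2.26-fold lower (edgeR adjusted p = 8.97e-13). KRT5, the main type II keratin of basal cells, stood at 10724 and 11308 CPM against 16140.1 and 16736 CPM, 1.51-fold lower (edgeR adjusted p = 8.04e-10). Other keratins went the opposite way: KRT15, a basal keratin often used to mark hair follicle stem cells, was higher at 1225 and 1353 CPM against 710.0 and 639 CPM (1.89-fold). KRT8 and KRT18, the pair of simple epithelia, were 1.47-fold and 1.66-fold higher, and both calls held.

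On the scale of TPM, which allows levels of different genes to be set side by side, KRT5 remained the most abundant of these keratins, with a mean of 6986 TPM in E419Q and 10313 TPM in WT. KRT17 went from 4419 TPM in WT to 1020.3 TPM in E419Q and KRT13 from 4932 to 2217 TPM, while KRT8 went from 1482 to 2219 TPM. By these means KRT17 lay above KRT8 in WT and below it in E419Q. KRT14, the usual partner of KRT5, stood at 122 and 148 CPM against 153 and 149.8 CPM and did not pass (edgeR adjusted p = 0.297). The stress keratin KRT6A was at 564 and 498 CPM against 495 and 476 CPM and did not pass either (edgeR adjusted p = 0.379). KRT16 was 2.11-fold lower, a call lost without E419Q A (edgeR adjusted p = 0.0898), and KRT6, KRT16 and KRT17 have close copies between which reads can be shared.

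Of 21 basal squamous genes tested, 12 were lower in E419Q (57.1%, against 3.59% of all genes) and 3 higher (14.3%, against 4.41%), with a median log2 fold change of -0.29. The lower members were largely parts of the hemidesmosome and its basement membrane anchor. COL17A1, the transmembrane collagen of hemidesmosomes, stood at 436 and 430.3 CPM against 883 and 758 CPM, 1.92-fold lower. LAMA3, a laminin chain of the epithelial basement membrane, was 1.75-fold lower, at 90.4 and 78.8 CPM against 165 and 127 CPM, and CAV1, the main protein of caveolae, was 1.703-fold lower. COL7A1, the anchoring fibril collagen, was also lower, and these calls held, as those of KRT17 and KRT5 did. ITGB4, ITGA6, DST, LAMB3 and ITGA2 were lower by 0.30, 0.30, 0.29, 0.25 and 0.23 on the log2 scale, calls that did not hold. Without WT A the list's lower count was 7. Against this direction ITGA3, the laminin-binding alpha 3 integrin chain, was higher, at 1406 and 1322 CPM against 788 and 746 CPM (1.76-fold), as were NGFR and KRT15, and all 3 held.

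**Figure D3:**
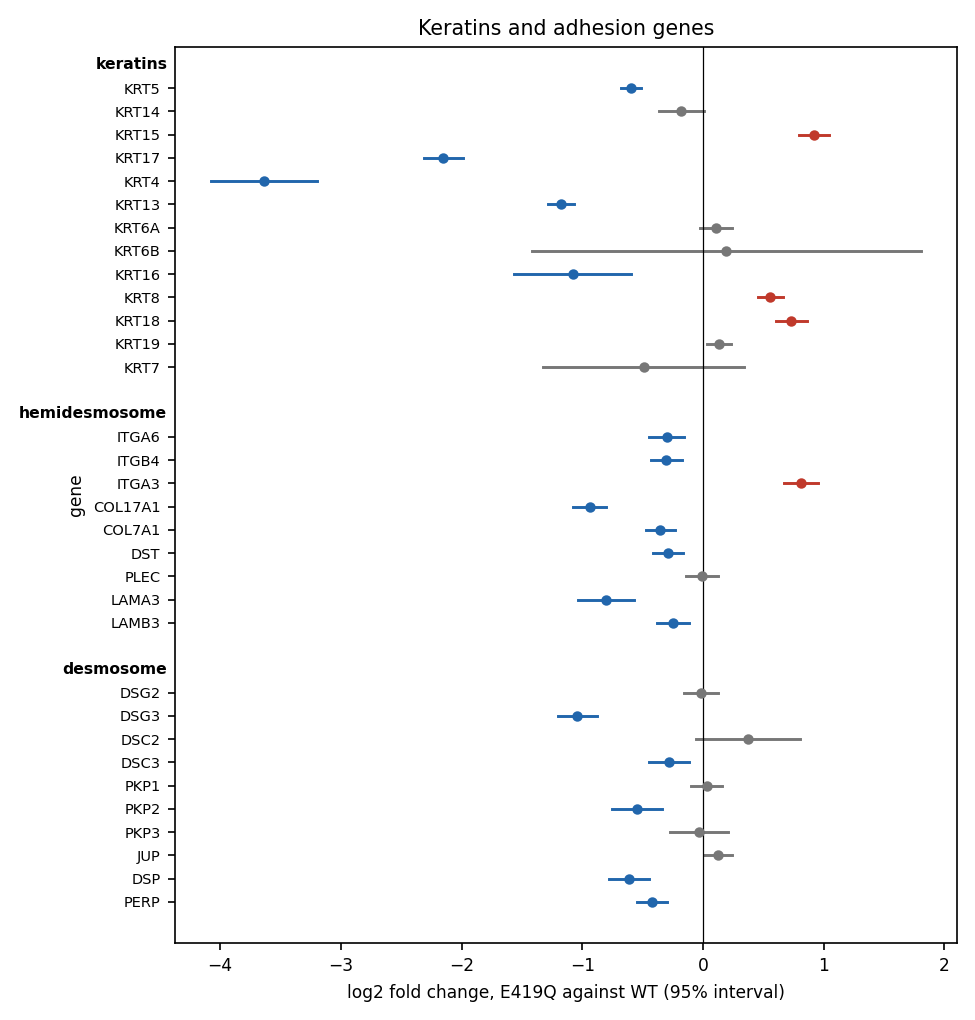
Log2 fold change of E419Q against WT with its 95% interval for keratins, hemidesmosome and laminin genes, and desmosome genes, red where called higher, blue where called lower and grey where not called. KRT4, KRT17 and KRT13 lie furthest to the left, most hemidesmosome genes lie left of 0, and KRT15, KRT8, KRT18 and ITGA3 lie to the right.

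Of 10 desmosome genes, 5 were lower (against 3.59% of all genes) and none higher, with a median of -0.16. DSG3, the desmoglein of basal and lower suprabasal cells, stood at 113 and 116 CPM against 220.4 and 244 CPM, 2.06-fold lower (edgeR adjusted p = 2.79e-09). DSP, the plaque protein that ties desmosomes to keratin, was 1.53-fold lower at 193 and 234 CPM against 337 and 309 CPM, and PERP was 1.34-fold lower. Those 3 calls held; PKP2 and DSC3 did not, and without E419Q B 3 members were called. PKP1, PKP3, JUP, DSG2 and DSC2 did not pass, and PKP1 stood at 826 and 962 CPM against 851 and 877 CPM. Among 14 tight junction genes 3 were higher and 1 lower (21.4% and 7.14%, against 4.41% and 3.59% of all genes). CGN, the junctional plaque protein cingulin, stood at 43.3 and 42.8 CPM against 7.96 and 5.76 CPM, 6.22-fold higher (95% interval 4.76 to 8.14), F11R was 1.36-fold higher and CLDN1 1.35-fold lower, and those 3 held. CLDN4 was 1.21-fold higher, a call lost without any 1 of the 4 libraries. CDH1, the E-cadherin of epithelial adherens junctions, belonged to no list and was looked at after its values were seen: it stood at 313 and 303 CPM against 198 and 187 CPM (1.58-fold, edgeR adjusted p = 2.73e-07).

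Of 14 squamous differentiation genes tested, 3 were lower, KRT4, KRT13 and CALML3 (1.63-fold, a calmodulin-like protein of upper layers), and FLG was higher. Those 3 lower calls held. The list's median was -0.44, but 10 of its tested members did not pass and several had few counts. In the SERPINB cluster of 7, SERPINB13 and SERPINB5 were 1.69-fold and 1.45-fold lower and held, SERPINB2 was lower with all 4 libraries but not without E419Q A or WT A, and SERPINB3 was higher. Of 11 stress keratins and alarmins, KRT16 was lower and LCN2, a secreted iron-carrier protein of innate defence, higher (1.81-fold, held). The lower and higher shares of the differentiation list were 21.4% and 7.14%, and those of the SERPINB cluster 42.9% and 14.3%. Those of stress keratins and alarmins were 9.09% each, against 3.59% and 4.41% of all genes. Of 5 kallikrein-related peptidases KLK14 was higher, a call lost without any 1 of the 4 libraries (edgeR adjusted p = 0.0886 to 0.162).

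The receptor genes changed in both directions. Of 11 FGF pathway genes 2 were called, FGFR1 higher and FGFBP1 lower, each held. FGFBP1, a secreted carrier that frees FGFs from the matrix, stood at 334 and 324 CPM against 656 and 552 CPM, 1.86-fold lower (edgeR adjusted p = 8.05e-09). FGFR2 stood at 142 and 140.0 CPM against 155 and 167 CPM (fold lower 1.16, interval 1.03 to 1.29, edgeR adjusted p = 0.114) and FGFR3 at 311 and 315 CPM against 273 and 315 CPM (fold 1.05, 0.951 to 1.16, edgeR adjusted p = 0.659), so neither passed. In TPM, FGFR1 went from a mean of 40.9 in WT to 197 in E419Q, and in E419Q it lay above the 67.6 TPM of FGFR2 and the 139 TPM of FGFR3.

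Of 10 EGFR ligands and receptors, 3 were higher and 3 lower (30.0% each, against 4.41% and 3.59% of all genes). EGFR itself stood at 508 and 524 CPM against 854 and 829 CPM, 1.65-fold lower (95% interval 1.46 to 1.86, edgeR adjusted p = 2.39e-06), and it held. ERBB2, its ligand-less partner, stood at 214 and 226 CPM against 139 and 146 CPM, 1.52-fold higher, and held as LRIG1 did. ERBB3 was 1.45-fold higher, TGFA 1.68-fold lower and NRG1 1.15-fold lower. Those 3 calls were weaker: ERBB3 was lost without E419Q B or WT B, TGFA without E419Q B or WT A, and NRG1 without E419Q B, WT A or WT B, which left 1 lower member without E419Q B and without WT A. Further receptors were picked after their values were seen. RET had a mean of 10.7 CPM against 2.53 CPM (4.14-fold higher), NTRK2, a neurotrophin receptor, at 127 and 139 CPM against 66.3 and 66.4 CPM (1.98-fold higher), and MET, the hepatocyte growth factor receptor, at 249.8 and 204 CPM against 351 and 337 CPM (1.54-fold lower).

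Among 19 early response and feedback genes of the MAPK pathway 4 were higher and 1 lower (21.1% and 5.26%, against 4.41% and 3.59% of all genes). SPRY2, an inhibitor induced by receptor tyrosine kinase signalling, stood at 23.4 and 23.2 CPM against 9.099 and 8.01 CPM, 2.69-fold higher (edgeR adjusted p = 9.98e-05). ETV4, an ETS factor downstream of FGF signalling, stood at 128 and 115 CPM against 65.97 and 56.1 CPM, 1.97-fold higher (edgeR adjusted p = 3.86e-07). SPRY2 and ETV4 held. SPRY4 and ETV5 were 1.82-fold and 1.39-fold higher, but both calls were lost without E419Q A and without WT B, each of which left 2 higher members, and ETV5 also without E419Q B. CCND1 was lower by 0.23 on the log2 scale and was not called without E419Q B, WT A or WT B. DUSP6, another ERK feedback gene, was at 108 and 92.7 CPM against 98.7 and 88.9 CPM and did not pass (edgeR adjusted p = 0.758), nor did SPRY1 (0.799), DUSP4 (0.831) or EGR1 (0.932).

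**Figure D4:**
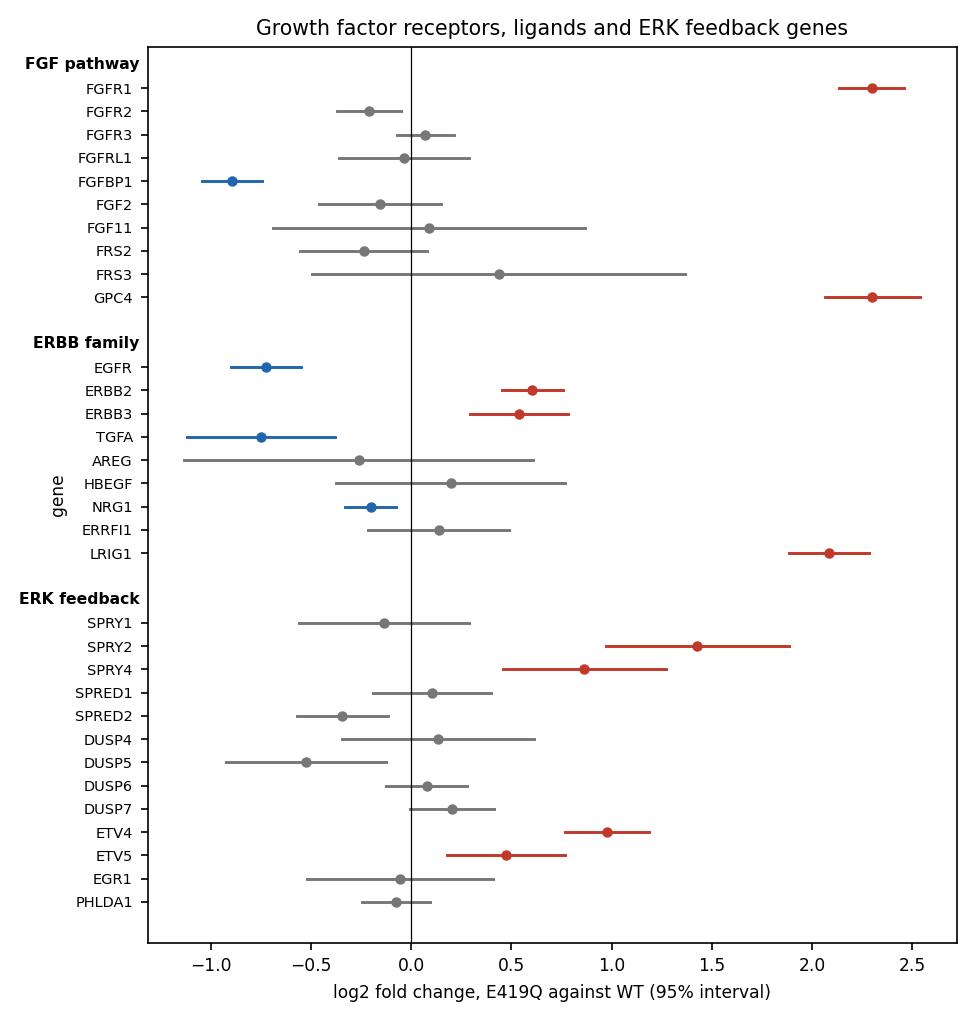
Log2 fold change of E419Q against WT with its 95% interval for FGF pathway genes with GPC4, the ERBB family with its ligands and LRIG1, and feedback genes of the ERK pathway, red where called higher, blue where called lower and grey where not called. FGFR1, GPC4 and LRIG1 lie near 2 and narrow, EGFR and FGFBP1 lie left of 0, and SPRY2 and ETV4 lie to the right while DUSP6 and EGR1 straddle 0.

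Among the other large falls, IGFL1, a secreted protein of the insulin growth factor-like family, stood at 4.23 and 5.35 CPM against 42.7 and 36.8 CPM, 8.29-fold lower (6.02 to 11.4, edgeR adjusted p = 1.85e-09). MMP10, a stromelysin, stood at 2.28 and 2.08 CPM against 16.8 and 17.03 CPM, 7.77-fold lower. EDAR, the ectodysplasin receptor, stood at 1.301 and 2.08 CPM against 9.95 and 11.3 CPM, 6.21-fold lower. For each the gap between the groups was far wider than the spread within them, and the call held. GHR, the growth hormone receptor, stood at 0.325 and 2.08 CPM against 9.95 and 10.5 CPM, and its log2 fold change of -3.03 became -2.30 without E419Q A and -4.86 without E419Q B. MUC4, a membrane mucin, was 3.37-fold lower, FBLN2, a matrix fibulin, 3.79-fold, HSPB3, a small heat shock protein, 4.03-fold and C19orf33 3.27-fold, and each held.

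The calls of a further 5 falls did not hold, and of these CALB1 and LOXL4 rested on few counts. CALB1, which encodes calbindin, stood at 0.651 and 0.594 CPM against 5.69 and 5.26 CPM and just missed the threshold without E419Q B. LOXL4, a lysyl oxidase, stood at 0.325 and 1.19 CPM against 5.69 and 5.01 CPM and had 0.106 without E419Q A and 0.0683 without WT A, with a log2 fold change of -3.92 without E419Q B against -2.75 with all. SDR16C5, a retinol dehydrogenase, had a log2 fold change of -2.20 and was lost without any 1 of the 4 libraries (edgeR adjusted p = 0.0576 to 0.261), with -3.04 without E419Q A. LPAR5, a lysophosphatidic acid receptor, had -1.85 and was lost without E419Q A, WT A or WT B (edgeR adjusted p = 0.207, 0.0854 and 0.126), with -2.50 without E419Q B. RP11-1035H13.3, whose relation to neighbouring genes was not examined, had -2.63, and -1.70 and -1.93 without E419Q A and WT A, where it was lost (edgeR adjusted p = 0.0610 and 0.113). RP11-1035H13.3 was uneven within both groups, at 0 CPM in E419Q A, 4.16 CPM in E419Q B, 19.1 CPM in WT A and 8.27 CPM in WT B.

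A pair of genes with high levels completed the 6 smallest p among the lower genes. GLUL, glutamine synthetase, stood at 515 and 566 CPM against 1249.7 and 1280.1 CPM, 2.37-fold lower (95% interval 2.19 to 2.57, edgeR adjusted p = 8.97e-13). GPRC5A, a retinoic acid-induced receptor of lung epithelium, stood at 339.6 and 318 CPM against 743 and 687 CPM, 2.203-fold lower (edgeR adjusted p = 1.43e-11). Both held.

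The promoters of 7 of these genes are shown because KLF factors read C-rich boxes and E419Q lies in the part of the protein that reads them: 4 genes higher and 3 lower in E419Q. Each run is the 250 bases before the annotated start, 5′ to 3′ on the gene's strand, from RefSeq on GRCh38.p14, a later build than the hg19 of the counts. Capitals mark matches on either strand to CCNCACCC, CCNCGCCC, CCNCTCCC or CCNCCCCC, boxes that differ in their central base and whose matches can overlap.
LRIG1, higher, chr3:66501122-66501371, minus strand: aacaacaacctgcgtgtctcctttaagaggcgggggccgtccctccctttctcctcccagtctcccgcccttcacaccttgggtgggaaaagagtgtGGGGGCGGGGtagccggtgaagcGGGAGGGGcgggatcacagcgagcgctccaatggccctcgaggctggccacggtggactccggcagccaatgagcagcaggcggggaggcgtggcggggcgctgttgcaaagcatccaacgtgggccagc
GPC4, higher, chrX:133415490-133415739, minus strand: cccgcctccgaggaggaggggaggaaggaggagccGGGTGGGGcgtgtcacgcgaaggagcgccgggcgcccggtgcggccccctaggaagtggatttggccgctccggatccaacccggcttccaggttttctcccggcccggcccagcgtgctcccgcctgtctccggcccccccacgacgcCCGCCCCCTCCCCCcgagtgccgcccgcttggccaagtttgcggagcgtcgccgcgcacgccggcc
COL4A4, higher, chr2:227164206-227164455, minus strand: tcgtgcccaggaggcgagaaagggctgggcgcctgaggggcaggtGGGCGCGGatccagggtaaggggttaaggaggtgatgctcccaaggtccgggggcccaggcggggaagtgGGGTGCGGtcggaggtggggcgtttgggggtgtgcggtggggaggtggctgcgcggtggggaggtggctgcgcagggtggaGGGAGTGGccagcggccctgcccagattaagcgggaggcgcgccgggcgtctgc
SOST, higher, chr17:43758792-43759041, minus strand: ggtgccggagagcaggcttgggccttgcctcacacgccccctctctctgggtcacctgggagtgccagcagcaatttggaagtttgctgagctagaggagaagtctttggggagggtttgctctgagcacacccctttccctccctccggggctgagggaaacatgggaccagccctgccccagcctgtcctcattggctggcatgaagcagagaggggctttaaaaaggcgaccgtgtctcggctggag
GLUL, lower, chr1:182391791-182392040, minus strand: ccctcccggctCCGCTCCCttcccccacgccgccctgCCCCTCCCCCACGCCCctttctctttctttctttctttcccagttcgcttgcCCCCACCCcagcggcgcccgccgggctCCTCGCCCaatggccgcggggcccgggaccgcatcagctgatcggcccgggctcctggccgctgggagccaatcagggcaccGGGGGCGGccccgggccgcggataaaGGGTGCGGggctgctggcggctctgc
KRT4, lower, chr12:52814117-52814366, minus strand: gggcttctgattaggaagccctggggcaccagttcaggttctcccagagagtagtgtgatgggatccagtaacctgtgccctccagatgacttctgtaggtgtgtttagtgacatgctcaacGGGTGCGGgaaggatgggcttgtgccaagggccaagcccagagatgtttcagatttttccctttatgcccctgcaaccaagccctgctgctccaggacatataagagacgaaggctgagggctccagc
IGFL1, lower, chr19:46229492-46229741, plus strand: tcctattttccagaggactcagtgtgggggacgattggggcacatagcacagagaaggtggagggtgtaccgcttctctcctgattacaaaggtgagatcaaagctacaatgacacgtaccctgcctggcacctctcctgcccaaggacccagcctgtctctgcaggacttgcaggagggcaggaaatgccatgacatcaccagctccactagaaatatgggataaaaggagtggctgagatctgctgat
LRIG1, GPC4, COL4A4 and GLUL held matches to CCNCTCCC in this window, GLUL held 2 of each of the 4 boxes, KRT4 held 1 match to CCNCACCC, and no match was found in SOST or IGFL1. LRIG1 and GLUL have 4 and 2 starts in the table, of which 1 each is shown.

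Over 13477 promoter windows of 300 bases (250 before to 50 after the start) of 9169 tested genes, CCNCTCCC was found in 43.9% of 685 windows of 399 genes higher in E419Q, in 35.8% of 537 windows of 320 lower genes and in 32.5% of all. CCNCCCCC was found in 44.2%, 39.5% and 38.8%, CCNCACCC in 24.1%, 25.9% and 21.0%, and CCNCGCCC in 45.4%, 45.4% and 47.0%. TGANTCA, the AP-1 site, was found in 7.15%, 6.70% and 5.25%, and in 12.4% of windows of genes at least 2-fold higher and 9.52% of those at least 2-fold lower. Those 2-fold shares rest on 21 of 169 and 10 of 105 windows. Median GC content was 65.3%, 65.3% and 65.0%, and 62.3% and 63.0% for the genes at least 2-fold higher and lower. In windows of the 2-fold sets CCNCTCCC was found in 40.8% and 35.2% and CCNCCCCC in 37.9% and 32.4%. CCNCACCC was found there in 27.8% and 22.9% and CCNCGCCC in 35.5% and 39.0%. These shares are descriptions without a test, since windows of 1 gene overlap, and a match is not a site of binding.

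Of 17 KLF and SP factors tested, which bind like sequences, 3 were lower (17.6%, against 3.59% of all genes) and none higher (against 4.41%), with a median of -0.15. KLF6 stood at 12.04 and 18.1 CPM against 29.6 and 34.8 CPM, 2.15-fold lower (95% interval 1.64 to 2.82, edgeR adjusted p = 0.000325), and held. KLF13 and KLF3 were each 1.37-fold lower, KLF13 lost without E419Q A or WT A and KLF3 without E419Q A, E419Q B or WT B, so that without E419Q A 1 member was called. KLF4, the factor of upper layers, stood at 38.7 and 30.6 CPM against 42.1 and 40.3 CPM (edgeR adjusted p = 0.288), and the other 12 apart from KLF5 (KLF2, KLF7, KLF9 to KLF12, KLF16, SP1 to SP4 and SP6) lay between -1.41 and 0.04 on the log2 scale without passing. Of 17 genes that the literature names as KLF5 targets, 7 were lower (41.2%, against 3.59% of all genes) and 1 higher (5.88%, against 4.41%), with a median of -0.20. FGFBP1 and EGFR held, while CDKN1A, MYC, CCND1, LDHA and FASN among the lower and SLC1A5, the higher member, did not, and without E419Q B or without WT A 2 were lower.

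Of 23 squamous transcription factors 4 were higher and 4 lower (17.4% each, against 4.41% and 3.59% of all genes). SOX2, amplified in many squamous tumours, stood at 108 and 109 CPM against 45.8 and 49.1 CPM, 2.25-fold higher (95% interval 1.95 to 2.59, edgeR adjusted p = 1.72e-08). TP63, the master factor of the squamous lineage, stood at 475 and 550.1 CPM against 708 and 751 CPM, 1.44-fold lower (edgeR adjusted p = 7.99e-06). FOXE1, a forkhead factor, stood at 217 and 224 CPM against 124 and 115 CPM, 1.82-fold higher. SOX2, FOXE1, TP63 and TRIM29 held, while TFAP2C, PITX1, ELF3 and EHF did not, and the counts were 2 higher without E419Q B and without WT A, and 2 lower without E419Q A and without WT B. Of 11 AP-1 subunits, FOSL1 was higher, at 110.0 and 77.9 CPM against 56.6 and 40.6 CPM (1.91-fold), and ATF3, a stress-induced subunit, was lower, at 9.11 and 8.92 CPM against 23.3 and 26.05 CPM (2.78-fold). FOSL1 and ATF3 held, and JUNB was lower but lost without E419Q A, E419Q B or WT B.

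Matrix and mesenchymal genes were mixed. Called higher and lower were 36.4% and 18.2% of mesenchymal genes and 8.33% and 33.3% of matrix assembly genes. For metalloproteinase and inhibitor genes the shares were 28.6% and 7.14%, against 4.41% and 3.59% of all genes. Of 11 mesenchymal genes 4 were higher and 2 lower, with a median of 0.52. TNC, a matrix glycoprotein of wounds and tumours, stood at 174 and 199 CPM against 51.2 and 67.1 CPM, 3.09-fold higher (edgeR adjusted p = 1.24e-09), and SPARC, a matricellular protein, at 151 and 153 CPM against 68.5 and 72.4 CPM, 2.13-fold higher. TNC and SPARC held. S100A4 and CDH11 (higher) and SNAI2 and COL5A1 (lower) did not: 2 were higher without E419Q A or WT B, and none was lower without any 1 of the 4 libraries. The summed level of the fibroblast markers moved in the same direction, as given above, and its part in these values was not tested, while the fibroblast genes DCN and LUM were at 0. Of 12 matrix assembly genes LOX, the collagen cross-linking oxidase, was higher (4.003-fold, held) and 4 were lower. FBLN2 and FBLN1 (1.49-fold) held and LOXL4 and MFAP5 did not, with 2 lower without WT A. Of 14 metalloproteinase and inhibitor genes 4 were higher and 1 lower: TIMP3, an inhibitor, stood at 164 and 195 CPM against 85.02 and 84.2 CPM (2.097-fold higher) and held, as MMP10 did, while MMP11, MMP15 and MMP28 did not, leaving 1 higher without WT A and 2 without any 1 of the others.

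In the IGF pathway IGFBP5, a binding protein that holds IGFs in the matrix, stood at 96.9 and 108 CPM against 21.04 and 28.6 CPM, 4.05-fold higher (edgeR adjusted p = 5.68e-09). IGFBP6 was 1.66-fold higher and IGFL1 lower, and these 3 held. IGF2 and IRS2 were also lower, making 2 of 15 higher and 3 lower, but IGF2 was lost without E419Q A, E419Q B or WT A and IRS2 without E419Q B, and 5 members were lower without Empty A or Empty B. Of 16 TGF-beta targets BHLHE40, a helix-loop-helix repressor, was lower (1.496-fold) and held. Of 18 YAP targets, ANKRD1 was 2.67-fold higher and held, AXL and AMOTL2 were higher but lost without E419Q A and without WT B, which left 1, and F3 was lower but lost without E419Q B, WT A or WT B; 5 were higher without Empty A or Empty B and with library totals as the scaling. Of 13 NOTCH genes HEY1, a target of the pathway, stood at 46.5 and 45.2 CPM against 15.4 and 16.03 CPM, 2.88-fold higher, and held, while JAG1, LFNG, MAML2 and JAG2 were called with all 4 libraries, and without any 1 of them 1 gene was higher and 1 lower. SFRP1, a secreted WNT inhibitor, was 1.95-fold higher and the 1 gene called of 9 tested on its list (11.1%, against 4.41% of all genes). SOST, the WNT antagonist given above as higher, was not on that list.

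Of 22 axon guidance genes 6 were higher and 2 lower (27.3% and 9.09%, against 4.41% and 3.59% of all genes). NTN1, netrin, stood at 84.6 and 93.3 CPM against 45.8 and 47.6 CPM, 1.88-fold higher, and SEMA3C was 1.52-fold higher, and both held. NRP2, SEMA3F, EFNB1 and EPHB4 were higher and NRP1 and EFNB2 lower with all 4 libraries, and without E419Q B 3 were higher and none lower (3 and 1 without WT A, 4 and 1 without WT B).

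Genes of lipid synthesis were mostly lower in E419Q. Of 29 cholesterol and fatty acid synthesis genes 17 were lower (58.6%, against 3.59% of all genes) and 2 higher, with a median of -0.28. Each change was small. INSIG1, a sterol sensor and itself a target of SREBP factors, stood at 243 and 215 CPM against 323 and 301 CPM, 1.38-fold lower (edgeR adjusted p = 0.000106). SQLE, squalene epoxidase, stood at 266 and 246 CPM against 355 and 319 CPM, 1.33-fold lower, LSS, lanosterol synthase, was 1.36-fold lower and HMGCS1, which makes HMG-CoA, 1.31-fold lower. INSIG1, SQLE, LSS, HMGCS1 and ACLY held, and the other 12 lower members did not: without E419Q B or without WT A 7 were lower, without E419Q A 14 and without WT B 15. FADS2, a desaturase, was 1.22-fold higher and did not hold, and no member was higher without E419Q A or WT B. In INSIG1, SQLE, LSS and HMGCS1 library A lay above library B within WT and within E419Q.

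Of 24 targets of NRF2, the factor of the oxidative stress response, 11 were higher (45.8%, against 4.41%) and none lower, with a median of 0.22. AKR1B10, an aldo-keto reductase, stood at 511 CPM in both E419Q libraries against 264 and 292 CPM (1.81-fold), GPX2, a glutathione peroxidase, at 248 and 229 CPM against 139 and 136 CPM (1.71-fold), and NQO1, a quinone reductase, at 651 and 643 CPM against 455 and 466 CPM (1.39-fold, edgeR adjusted p = 2.41e-06). AKR1C1 (1.701-fold), FTH1 (1.48-fold) and ME1 (1.43-fold) were higher as well, and these 6 held. The count of higher members was 8 to 10 without any 1 of the 4 libraries. AKR1C1 and AKR1B10 belong to families with close copies and FTH1 has many processed pseudogenes, so their counts are less certain. Of 10 aldehyde and retinoid genes, ALDH3B2 was 5.75-fold and ALDH2 1.47-fold higher and both held, though DESeq2 did not call ALDH2 (adjusted p = 0.0933); RDH10 and STRA6 were higher and CYP26B1 and DHRS3 lower without holding, with 2 higher without E419Q A, E419Q B or WT B, and none lower without E419Q B or WT A.

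Of 20 glycolysis and hypoxia genes 4 were higher and 6 lower. The monocarboxylate transporter SLC16A3 (1.45-fold), ADM (1.62-fold), EGLN3 (1.72-fold) and HK1 (1.298-fold) were higher, VEGFA (1.59-fold), NDRG1 (1.57-fold) and DDIT4 lower, and those 7 held. BNIP3, ALDOA and LDHA were lower without holding, with 3 lower without E419Q B and without WT A. Of 23 genes of the ATF4 and unfolded protein response 5 were lower and 2 higher (21.7% and 8.70%, against 3.59% and 4.41% of all genes). SLC7A5, the light chain of a large amino acid transporter, stood at 1363 and 1137 CPM against 1937 and 2026 CPM, 1.61-fold lower (edgeR adjusted p = 8.53e-08), and its heavy chain SLC3A2 was 1.24-fold lower. ATF3, SLC7A5 and SLC3A2 held; without any 1 of the 4 libraries the lower count was 3, as PHGDH and SHMT2 were lost, and CALR and PDIA4 were both lost as higher without E419Q B and without WT B. Of 14 heat shock genes HSPA1B, which has the near-identical copy HSPA1A, was 1.35-fold higher and held, and BAG3 and HSPA4 were 1.31-fold and 1.22-fold higher without holding. The higher share of that list was 21.4%, against 4.41% of all genes.

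Proliferation and housekeeping lists differed in their calls. The G1/S, G2/M, oxidative phosphorylation, mitochondrially encoded and ribosome biogenesis lists had at most 1 call each. Of the G1 cyclins, kinases and inhibitors 18.2% were higher and 36.4% lower, against 4.41% and 3.59% of all genes. The lower shares of ribosomal proteins (14.3%) and of p53 targets were also above 3.59%, though none of those calls held. None of 26 G1/S genes passed with edgeR (5 had an unadjusted p under 0.05, and none was called by DESeq2), and their median was -0.01. Of 26 G2/M genes MKI67 was 1.14-fold lower, a call lost without any 1 of the 4 libraries (edgeR adjusted p = 0.0602 to 0.377). None of 26 nuclear oxidative phosphorylation genes (1 with an unadjusted p under 0.05) and none of 13 mitochondrially encoded genes (1) passed, and DESeq2 called none of either, while 1 mitochondrially encoded gene was higher without WT B. Of 28 ribosomal proteins 4 were lower by 0.18 to 0.24 on the log2 scale, a count that was 0 without E419Q A or WT A, 1 without E419Q B, 2 without WT B, and 9 without Empty A or Empty B or with upper-quartile scaling. Among 24 ribosome biogenesis genes MYC was 1.25-fold lower, lost without E419Q B and without WT A. Of 11 G1 cyclins, kinases and inhibitors, CDK6 was 1.55-fold higher and CCND2 1.53-fold lower, at 99.2 and 115 CPM against 169 and 154 CPM, and both held; CCND3, CDKN1A, CDKN1B and CCND1 did not. The lower count was 2 without E419Q A or WT A and 1 without E419Q B or WT B, and the higher count 1 without E419Q A or WT A. Of 20 p53 targets BBC3, with 3 counts against 24 (6.86-fold lower, counting interval 2.08 to 35.6), BTG2 and CDKN1A were lower, none of which held, with none lower without E419Q A or WT A and 1 without E419Q B or WT B.

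Of 15 genes of MHC class I antigen presentation 6 were lower (40.0%, against 3.59% of all genes) and none higher, with a median of -0.25. B2M, the light chain, stood at 341 and 379.5 CPM against 492 and 537 CPM, 1.45-fold lower (edgeR adjusted p = 4.38e-06). ERAP2, a peptide-trimming peptidase, was 1.61-fold lower, and HLA-B 1.41-fold lower at 285 and 357 CPM against 431 and 463 CPM, though reads of HLA genes depend on how alleles align. B2M, ERAP2 and HLA-B held, and 3 members were lower without E419Q A, WT A or WT B, as PSMB9 and ERAP1 were lost, among others. Of 20 interferon response genes IRF1 was 1.43-fold lower, lost without E419Q B, WT A or WT B. CXCL1 and IL8, chemokines for neutrophils, were 2.88-fold and 2.44-fold higher among 6 tested, both lost without E419Q B (edgeR adjusted p = 0.0577 and 0.0788). PTGS2, the inducible prostaglandin synthase, stood at 5.53 and 7.43 CPM against 23.9 and 17.8 CPM, 3.201-fold lower, and held, while IL1B, IL1RN and NFKBIA were higher among 14 cytokine and NF-kB genes and did not hold: IL1B stayed called only without WT A and NFKBIA only without E419Q A, and the list's higher count was 1 without E419Q B or WT A and 0 without WT B. VTCN1 was 3.41-fold higher among 5 checkpoint genes and was lost without E419Q B, WT A or WT B.

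Lists of other lineages differed in their calls. Lung lineage and erythroid genes had none, while 2 of 3 markers of other cell types tested were higher. Of the intestinal and endodermal genes 30.0% were higher and 1 gene was lower, against 4.41% and 3.59% of all genes. Of 10 intestinal and endodermal genes AGR2, a secretory pathway disulfide isomerase, stood at 34.5 CPM in both E419Q libraries against 12.5 and 12.02 CPM (2.77-fold higher), SOX9 at 30.3 and 35.4 CPM against 15.4 and 15.5 CPM (2.100-fold) and EPCAM was 1.35-fold higher, all held, and FOXA1 was lower but lost without any 1 library. VWF and COL1A1 were 1.91-fold and 1.98-fold higher, the first lost without WT B and the second without E419Q B, WT A or WT B. ALPP, which has close copies, was 2.98-fold lower and lost without E419Q B and without WT A. Of 4 lung lineage, 4 erythroid, 4 histone and 10 ion channel genes tested none passed with edgeR, and DESeq2 called none. Of them 2, 2, 1 and 4 had an unadjusted p under 0.05, and 1 channel gene was higher without E419Q B and 1 erythroid gene lower without Empty A or Empty B. At this depth, 3 counts correspond to 0.751 to 0.976 CPM in a library, so differences among genes of that level were not detectable.

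**Figure D5:**
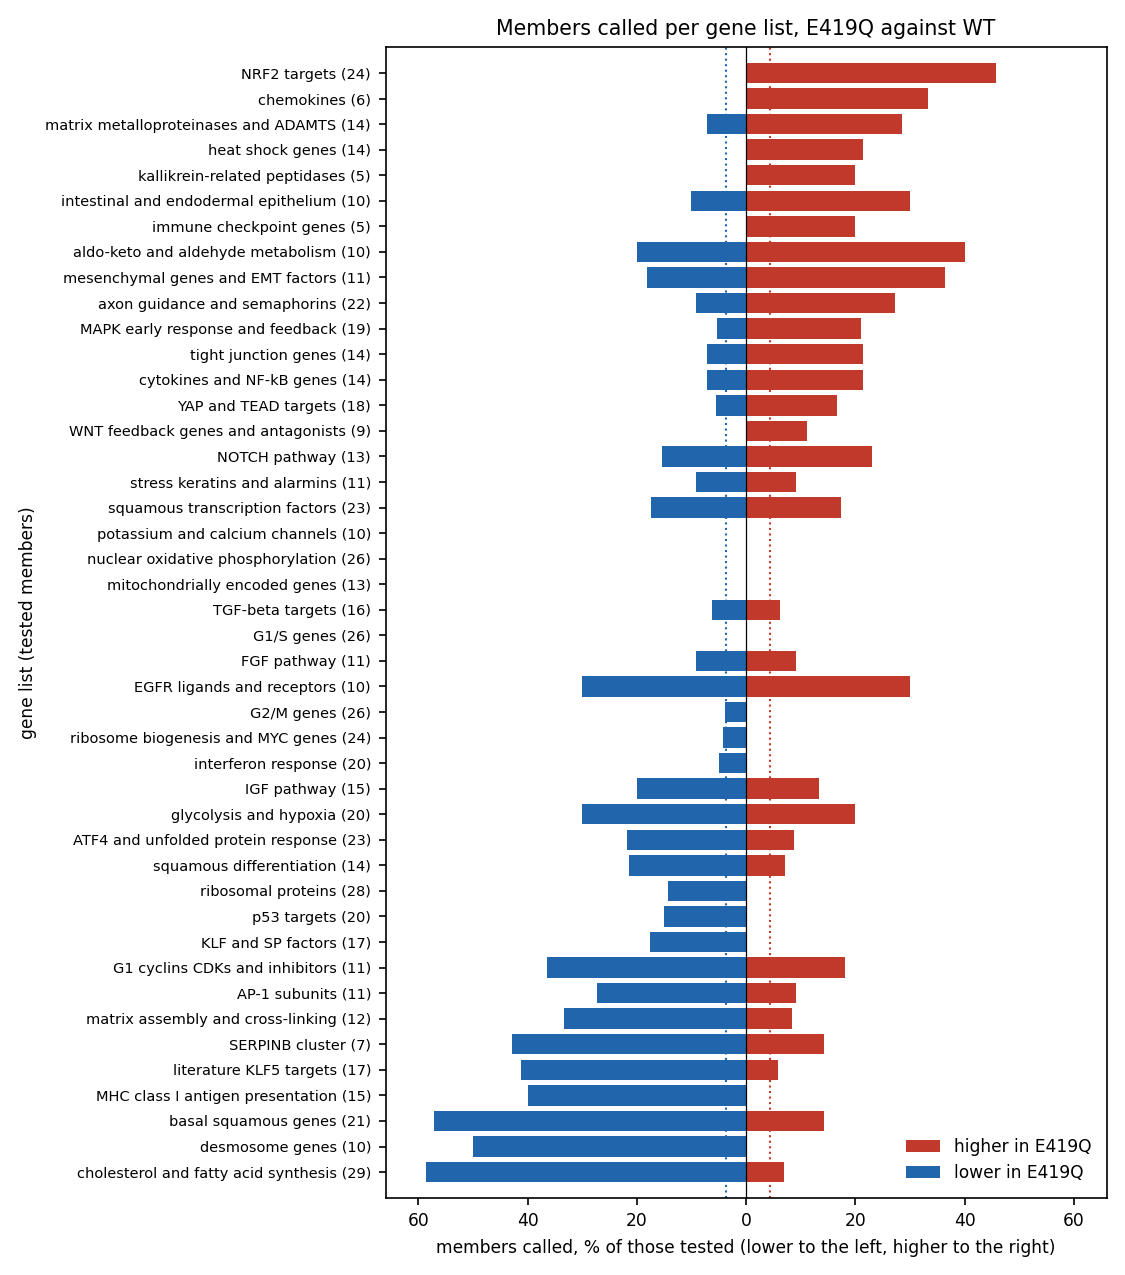
Share of tested members called higher (red, right) or lower (blue, left) in E419Q for each gene list with at least 5 tested members, the number tested in brackets; dotted lines mark the 4.41% and 3.59% of all tested genes called higher and lower. NRF2 targets stand out to the right, and lipid synthesis, basal squamous and desmosome genes to the left, while the G1/S, oxidative phosphorylation, mitochondrial and ion channel lists have no bar. The lists were chosen with earlier results of these data known.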

How the data were processed

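RNA was column-purified and poly(A)-selected before NEB library preparation, per the labels' protocols. Reads were processed with STAR and RSEM on hg19, and edgeR and limma are also named, per the submitters' processing notes, without versions. The authors deposited RSEM expected counts per gene, unscaled, and beside them TPM and FPKM, per the file headers; FPKM was not used and TPM served only to set levels of genes side by side. The 57820 gene IDs carry symbols, and biotypes came from GENCODE 29 (52338 IDs matched) or RefSeq.

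Expected counts were rounded and tested with edgeR 4.0.16 (quasi-likelihood, TMM scaling, filterByExpr, R 4.3.3) over the 6 HCC95 libraries, contrast E419Q minus WT, two-sided, Benjamini-Hochberg threshold 0.05 over 12933 genes. Fold intervals use the test's own error at 95%. Library totals were 3074118 to 4643748 counts. The counting intervals given for ratios of few counts, and the floors, cover counting error only. The libraries within a group were not duplicates: their counts differed with a chi-square of 1.47 to 1.87 for each degree of freedom (5.67 to 6.15 between E419Q and WT). Mitochondrially encoded genes took 2.87% to 3.02% of counts. The scripts were tested on simulated data.

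Named genes are KLF5, in each direction the 15 protein-coding genes of largest change with no overlap of the groups and a mean of at least 5 CPM in the higher group, the 6 smallest p in each direction, up to 3 called members per list and the KLF and SP factors. Further called members that complete a list were named after their values were seen. A few genes that the rule selects are not reported here, though list counts include them. Members and the 50 lists were chosen with earlier results of these data known. The 16 alternatives were other scalings, DESeq2 1.42.0, limma-voom 3.58.1, other filters, 4 libraries, a replicate block, unrounded counts and each library left out. Scripts ran in Python 3.11.15. No gene coordinates are given for the counts, since the annotation used here is of a later build.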

Additional observations from a re-analysis of the deposited data

How the results depend on the processing

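The number of genes called moved with the tool and with the number of libraries. DESeq2 called 467 genes, 270 higher and 197 lower (1136 at an unadjusted p under 0.05, against 2460 with edgeR), 45.2% of the edgeR calls. Without 1 library in turn the number called was 597 to 1172, with 341 to 637 higher and 249 to 536 lower; the lowest values came from leaving out an E419Q or WT library, where the lone library left is assumed to vary as the other groups do, and the highest from leaving out an empty vector library. The share of calls that were higher was 55.1% with TMM, 49.4% with upper-quartile scaling (515 higher, 527 lower) and 60.0% with library totals (621 and 414), and these scalings moved the median log2 fold change over all genes to -0.03 and 0.02. The other alternatives gave 987 to 1222 calls. KLF5 did not pass under any alternative, with log2 fold changes of 0.03 to 0.09. Of 135 named genes called, 109 to 115 were called without an E419Q or WT library and 108 by DESeq2, and none changed sign under any of the 16 alternatives.

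With the replicate letter as a block, 987 genes were called, 553 higher and 434 lower, of which 972 were among the 1034. The deviations of the A libraries from their group means correlated at 0.0267 between E419Q and WT over 12933 genes (-0.0287 and -0.0189 for each against the empty vector). A correlation over all genes, many with few counts, cannot show whether some genes share an effect of the letter, which was not tested. The main fit did not pair the libraries.

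With 3074118 to 3992537 counts per library and 2 libraries per group, genes of a few CPM give wide intervals, and a difference that missed the threshold is not shown to be absent.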
